A study of Solanum lycopersicum with 95 samples.

Results

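The tomato genes described here make or release auxin, and 7 were chosen by gene ID from the 34075 genes of the count table. They are the flavin monooxygenases ToFZY (Solyc06g065630), FZY2 (Solyc08g068160), FZY3 (Solyc09g091090), FZY5 (Solyc06g083700) and FZY6 (Solyc09g074430), the aminotransferase PAD-1 (Solyc03g120450) and SlIAR3 (Solyc03g121270), a hydrolase of auxin conjugates. Earlier results of these data were known when the genes were chosen. ToFZY, PAD-1 and SlIAR3 are genes that the study names for their behaviour in these same fruits. Their fruit results are therefore not independent evidence of a light response or of its direction. RNA was sequenced from leaves and fruits of the greenhouse cultivar Foundation in 95 libraries. Under Leaf FR, far-red light (FR) of 77 µmol m-2 s-1 was added to the red and white light on leaves, stem and apex, while the fruits were kept out of it. Under No FR, all organs received red and white light without additional FR, and both treatments had the same photosynthetic light of 258 µmol m-2 s-1. FR started 63 days after sowing, when the fruits were 10 days past anthesis. Samples were taken at 0 (before any FR), 6, 12, 24, 48 and 96 h, from the first fruit of the second truss and from a leaflet of the leaf above it. Each of the 24 groups of organ, light and time had 4 plants, except the 12-h leaves under Leaf FR with 3, and no plant was harvested more than once. Plants of a treatment sampled at the same time came from different growing units, while plants of different times could share a unit.

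Auxin (indole-3-acetic acid) is made in plants mainly from tryptophan through indole-3-pyruvate, and flavin monooxygenases of the YUCCA family, called FLOOZY (FZY) in tomato, carry out the final and limiting step. In Arabidopsis the aminotransferase VAS1, to which PAD-1 is related, turns indole-3-pyruvate back into tryptophan and so holds auxin synthesis down, and the hydrolase IAR3 frees auxin from its conjugate with alanine. Members of the YUCCA family are known from Arabidopsis for their induction in leaves when the ratio of red to far-red light falls, and in tomato auxin drives fruit set and early fruit growth.

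Library totals lay between 14769415 and 17957406 counts. Levels are given as counts or as CPM, counts scaled to an effective library size of 1000000 with factors shared by all 95 libraries, and as means ± SD where n is given. Log2FC is the log2 of Leaf FR over No FR, of fruits over leaves or of a time over the time it is set against, and is followed by ± its standard error. Each comparison used edgeR's quasi-likelihood test, and a gene was called where its P-value, adjusted over all genes tested (adjusted P), was under 0.05. As a check of the labels, the 3 IDs fixed as leaf markers had higher CPM in each of the 47 leaf libraries than in any of the 48 fruit libraries. Of the 3 IDs fixed as fruit markers, Solyc07g055920 (49.3 to 87.2 CPM in fruits, 0 to 0.41 in leaves) and Solyc03g114830 (82.9 to 166 CPM in fruits, 0 to 2.09 in leaves) separated the organs. The remaining ID, Solyc06g069430, overlapped (1.54 to 4.63 CPM in fruits, 1.44 to 13.8 in leaves). Its median was higher in leaves (5.19 CPM) than in fruits (2.84 CPM). In whole organs, fewer cells of a type and less RNA per cell cannot be told apart.

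FZY5, a YUCCA-like monooxygenase, had the largest difference between treatments of any member in leaves. Over 6 to 96 h it had between 29 and 276 counts in the 19 leaf libraries under Leaf FR (median 61), against 0 to 24 counts in the 20 leaf libraries under No FR (median 1). On the CPM scale these ranges were 1.96 to 15.8 under Leaf FR and 0 to 1.59 under No FR, so no library of one treatment reached into the range of the other over these times. Before FR, the leaves that were to receive it had 0, 0, 1 and 1 counts and the No FR leaves had 0, 1, 2 and 1, too few for the gene to be tested. In leaves FZY5 reached the counts needed for a test (10 or more in 3 or more libraries) only through the Leaf FR libraries. Its direction was fixed by this, so its P-values, ranks and calls between treatments in leaves are a description. Averaged over 6 to 96 h, FZY5 was higher in leaves under Leaf FR by a Log2FC of 5.00 ± 0.33 (adjusted P 1.57e-14). Summed over these times, 1644 counts under Leaf FR stood against 64 under No FR, a ratio of 26.7 after scaling for library size. Its 95% interval from 20.8 to 34.9 (exact binomial) covers counting error only, as do the other intervals of count ratios given below.

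At 6 h, FZY5 had 92, 205, 115 and 276 counts in leaves under Leaf FR and 1, 4, 10 and 24 counts under No FR. This was the highest mean level of the gene in any of the 24 groups (10.5 ± 5.18 CPM under Leaf FR, 0.64 ± 0.676 CPM under No FR, SD, n = 4 each), and the No FR leaves were at their own highest level at this time too. The Log2FC of 4.05 ± 0.74 did not pass the threshold (adjusted P 0.0802). Without No FR replicate 4, the library with 24 counts, it was 5.00 and passed (adjusted P 0.0314). DESeq2, the package named by the study, gave an adjusted P of 3.11e-06 (Wald test). With the replicate number as a block edgeR called it (0.0304). At 6 h, 5.13% of all genes tested in leaves did not overlap between treatments.

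At 12 h, late in the light period, the gene had 69, 80 and 43 counts under Leaf FR and 5, 0, 1 and 0 under No FR. The Log2FC was 5.34 ± 0.81, with an adjusted P of 0.578 by edgeR and 7.1e-08 by DESeq2, and 2.86% of all genes did not overlap at this time. Without No FR replicate 1, the library with 5 counts, it was 7.01 (adjusted P 0.152). At 24 h, back at the hour of the 0-h sampling, there were 98, 44, 124 and 123 counts under Leaf FR and 1 count in each of the 4 libraries under No FR. FZY5 was called at this time, with a Log2FC of 6.50 ± 0.52 (adjusted P 0.00271), and its P-value ranked as number 3 of 17589 genes, where 3.81% of genes did not overlap. The summed counts of 389 and 4 gave a ratio of 100 (95% interval 38.9 to 370).

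At 48 h, FZY5 had 59, 47, 29 and 37 counts under Leaf FR and 1, 0, 3 and 4 under No FR (Log2FC 4.38 ± 0.64, adjusted P 0.0825 by edgeR and 2.02e-07 by DESeq2). At 96 h it had 61, 51, 40 and 51 counts under Leaf FR and 2, 4, 0 and 1 under No FR, and it was called (Log2FC 4.73 ± 0.62, adjusted P 0.022). The call at 96 h was lost without Leaf FR replicate 1 (adjusted P 0.0774), No FR replicate 1 (0.0787) or No FR replicate 4 (0.12), and with the replicate number as a block (0.164). Without No FR replicate 2, the Log2FC was 5.51 (0.0306). Because the No FR leaves had so few counts, the fitted Log2FC depends on the prior count of the fit. For 6 h the ratio of summed counts was 16.4 (95% interval 11.9 to 23.2), for 12 h 42.1 (19 to 116), for 48 h 21.3 (10.6 to 50.2) and for 96 h 28.3 (13.5 to 71.4).

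**Figure D1:**
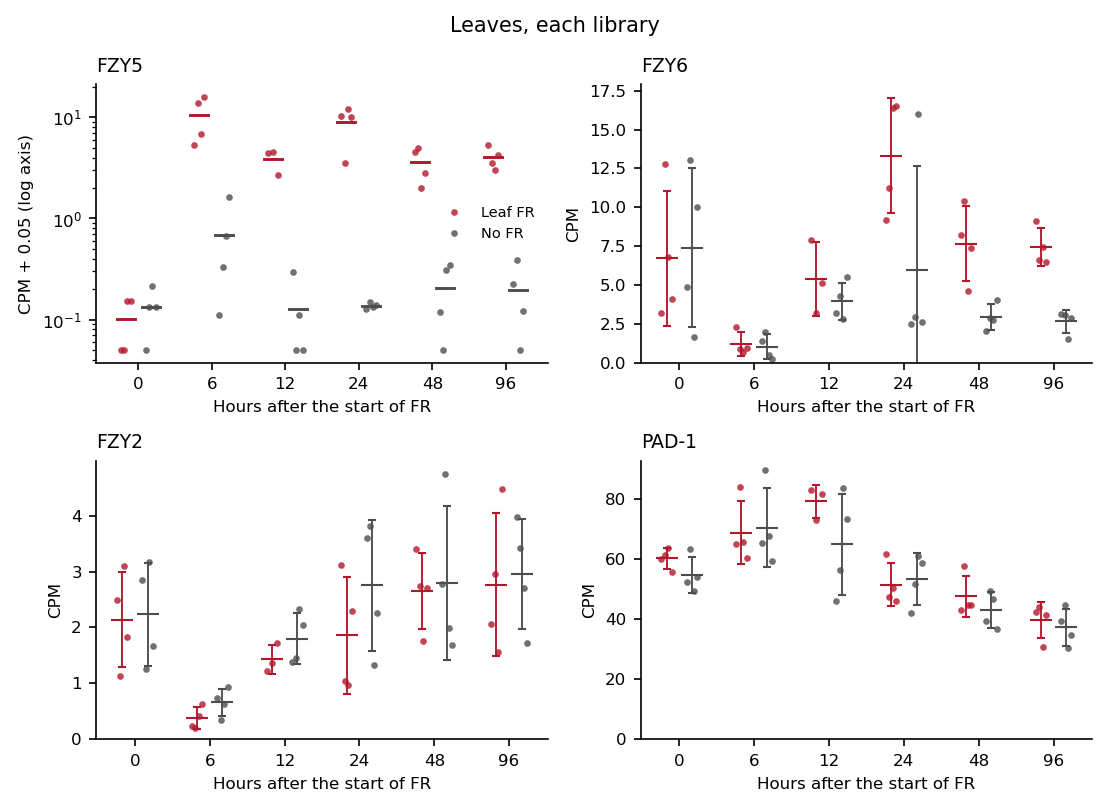
CPM of FZY5, FZY6, FZY2 and PAD-1 in each leaf library (points) against hours after the start of FR, with the mean (line) and, on the linear axes, the SD (bars, cut at 0 for FZY6 at 24 h) of 4 libraries, or 3 under Leaf FR at 12 h. FZY5 is on a log axis of CPM + 0.05, where the lowest Leaf FR library from 6 h on (1.96 CPM) lies above the highest No FR library (1.59 CPM), while FZY2 and PAD-1 overlap between treatments at every time.

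In fruits FZY5 was detected in all 48 libraries (27 to 145 counts), with no called difference between treatments. The largest difference was at 24 h, with 79, 84, 52 and 70 counts under Leaf FR and 61, 45, 47 and 34 under No FR (Log2FC 0.65 ± 0.22, adjusted P 0.972), where the groups overlapped. The light response of FZY5 differed between the organs when that difference was tested. The Log2FC of leaves minus that of fruits was 4.23 ± 0.72 for 6 h (adjusted P 0.0183), 5.90 ± 0.58 for 24 h (0.000153) and 4.63 ± 0.57 for 96 h (0.000861). Of the genes tested for such a difference, 0.485%, 0.153% and 0.511% were called at 6, 24 and 96 h. The call at 6 h was lost without replicate 1, 2 or 3 of all groups (adjusted P 0.106, 0.121 and 0.235), and that at 96 h without replicate 1 (0.0581) or 4 (0.0824). The difference was 4.91 at 6 h without replicate 4 and 5.37 at 96 h without replicate 2. Within leaves, the light response was not shown to differ from that of 0 h, neither for 6 h (difference of Log2FC 4.79 ± 1.68, adjusted P 0.554) nor for 96 h (5.47 ± 1.34, 0.234), in fits where both 0-h groups had 0 to 2 counts and where 0.0161% and 0.0661% of all genes were called for 6 and 96 h. DESeq2 called the difference of 96 h from 0 h (adjusted P 0.0201).

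In the order of the 24 group means, FZY5 stood highest in leaves under Leaf FR at 6 h (10.5 CPM) and 24 h (8.96 CPM). The 12 fruit groups came between rank 3 (4.97 ± 1.38 CPM, No FR at 0 h) and rank 17 (2.21 ± 0.483 CPM, No FR at 24 h), with the Leaf FR leaves of 12, 48 and 96 h among them. Below them were the leaves without FR and the leaves of 0 h, at 0.64 CPM and less. Of the 23 pairs of neighbours in this order, 22 overlapped in their library values, and the gap below rank 17 was the exception.

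FZY6 was the other member whose treatments separated in leaves, at 48 and 96 h, though edgeR called it at no single time. At 48 h it had 108, 99, 68 and 98 counts under Leaf FR and 29, 31, 32 and 55 under No FR, and at 96 h it had 106, 96, 100 and 78 under Leaf FR and 36, 37, 20 and 40 under No FR. The treatments did not overlap at either time, which held for 5.59% of the 17607 genes tested at 48 h and 6.9% of the 17520 at 96 h. FZY6 was at 7.64 ± 2.4 CPM under Leaf FR and 2.93 ± 0.841 CPM under No FR at 48 h (SD, n = 4 each), with a Log2FC of 1.37 ± 0.31 (adjusted P 0.317 by edgeR and 0.0119 by DESeq2). At 96 h the levels were 7.42 ± 1.22 CPM under Leaf FR and 2.66 ± 0.75 CPM under No FR (SD, n = 4 each), with a Log2FC of 1.48 ± 0.26 (adjusted P 0.0752 by edgeR and 5.06e-05 by DESeq2).

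At 24 h the counts of FZY6 were 88, 141, 169 and 201 under Leaf FR and 32, 29, 193 and 29 under No FR. No FR replicate 3 thus lay among the Leaf FR libraries and the other 3 below all of them. The Log2FC was 1.13 ± 0.61 (adjusted P 0.813) with that library and 2.30 ± 0.27 (0.0128) without it. At 0, 6 and 12 h the treatments overlapped. Averaged over 6 to 96 h, FZY6 was higher in leaves under Leaf FR by a Log2FC of 0.94 ± 0.25 (adjusted P 0.0211). This call was lost without replicate 1 (Log2FC 0.73, adjusted P 0.308) or replicate 4 (0.94, 0.0829) of all groups. FZY6 levels under Leaf FR were 7.42 ± 1.22 CPM at 96 h and 6.71 ± 4.34 CPM at 0 h. Those under No FR were 2.66 ± 0.75 CPM at 96 h and 7.4 ± 5.1 CPM at 0 h (SD, n = 4 each). The Log2FC of 96 over 0 h was 0.15 ± 0.54 under Leaf FR (adjusted P 0.88) and −1.49 ± 0.56 under No FR (0.254). Neither was called. The light response at 96 h was not shown to differ from that at 0 h (difference 1.65 ± 0.74, adjusted P 0.781). At 96 h the response differed between the organs, with a Log2FC of leaves minus fruits of 1.63 ± 0.26 (adjusted P 0.0123), a call that was lost without replicate 1, 3 or 4 (adjusted P 0.14, 0.0503 and 0.144). At 24 h that difference was 1.06 and not called (adjusted P 0.886), and without replicate 3 of all groups it was 2.09 and called (0.0129).

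The other members showed no called light response in leaves. FZY2 had between 3 and 54 counts per leaf library, and its Log2FC lay between −0.79 and −0.08 over the 6 times, with standard errors of 0.32 to 0.49 and a lowest adjusted P of 0.764. PAD-1 (391 to 1366 counts) had Log2FC between −0.07 and 0.28, with standard errors of 0.13 to 0.22 and a lowest adjusted P of 0.875. SlIAR3 (412 to 2186 counts) had Log2FC between −0.06 and 0.55, with standard errors of 0.21 to 0.35 and a lowest adjusted P of 0.589.

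ToFZY and FZY3 were close to absent from leaves. ToFZY had 0 counts in 37 of the 47 leaf libraries and at most 2 in any, and FZY3 had 0 in 33 and at most 4, so that neither could be tested. Over 6 to 96 h, FZY3 summed to 18 counts in 19 leaf libraries under Leaf FR and 5 counts in 20 under No FR, a ratio of 3.75 (95% interval 1.34 to 12.9), and 9 of the Leaf FR libraries and 16 of the No FR libraries held none. In fruits FZY3 had 0 counts in 44 libraries and 1 in each of the other 4. A count of 0 allows up to 3 counts in a library of this depth.

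Counted together, 2 of the 29 tests of a member in leaves passed the threshold, both of them FZY5. At 0, 6, 12, 24, 48 and 96 h the members called by edgeR numbered 0, 0, 0, 1, 0 and 1, of 4 tested before FR and 5 thereafter, while 0.0%, 0.365%, 0.00548%, 0.188%, 0.0795% and 0.263% of all genes were called. Members with an unadjusted P under 0.05 numbered 0, 1, 1, 1, 2 and 2 at these times, against 3.17%, 8.91%, 1.26%, 6.87%, 7.53% and 11.4% of all genes. The DESeq2 calls were also 0, 1, 1, 1, 2 and 2 members, against 0.121%, 2.82%, 0.115%, 1.51%, 1.44% and 2.51% of all genes. All of these were FZY5 and FZY6, higher under Leaf FR. FZY5 passed the filter on low counts in leaves only through the Leaf FR libraries, where it is high, and its direction was fixed by it. The counts of members that include FZY5 are therefore a description, and no median over the members is given for leaves. In the average over 6 to 96 h, 2 of the 5 members tested (FZY5 and FZY6) were called, against 4.51% of 19346 genes.

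**Figure D2:**
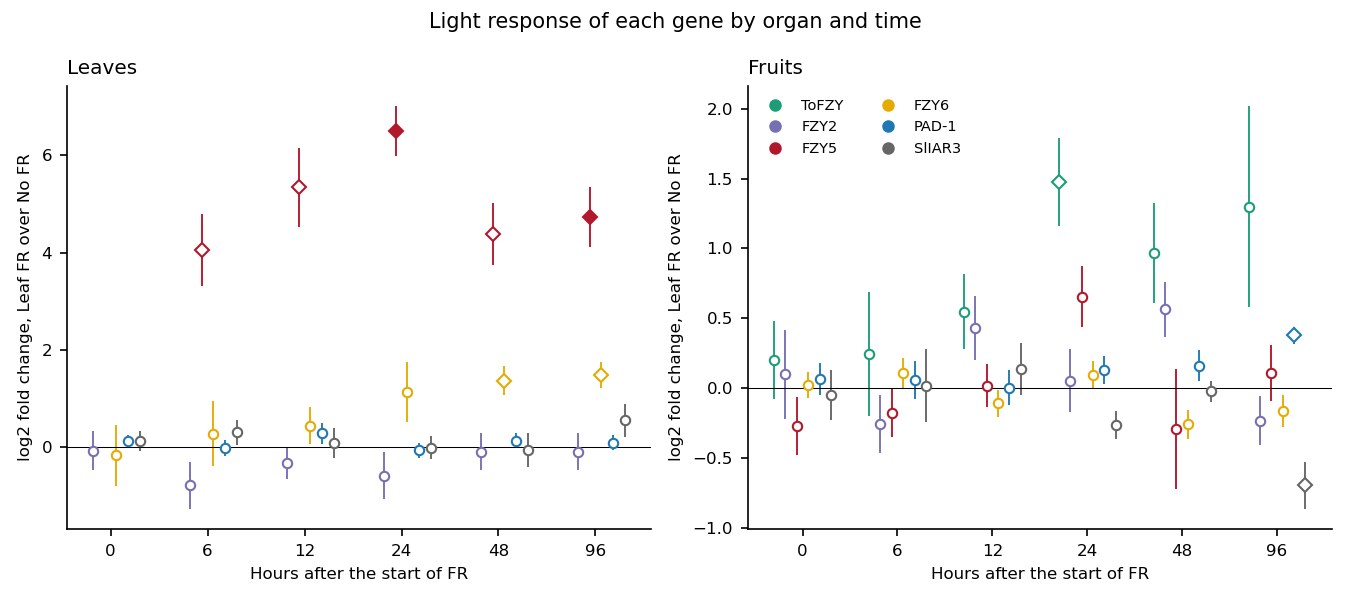
Log2FC of Leaf FR over No FR for each member tested (points, with standard error bars) in leaves (left panel) and fruits (right panel, on its own scale) against hours after the start of FR. Diamonds mark members whose treatments did not overlap, and filled symbols those with an adjusted P under 0.05, which are FZY5 in leaves at 24 h (6.50) and 96 h (4.73).

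In fruits ToFZY, the YUCCA-like gene of the list that was found almost only there, was detected in all 48 libraries (15 to 263 counts). At 24 h it had 86, 64, 100 and 41 counts under Leaf FR and 38, 20, 34 and 15 under No FR, and on the CPM scale the lowest Leaf FR library (2.08) lay above the highest No FR library (1.74). Non-overlap of this kind was found in 2.64% of the 18317 genes tested in fruits at 24 h. The Log2FC was 1.48 ± 0.31, with an adjusted P of 0.972 by edgeR and 0.0403 by DESeq2. Set against the light difference before FR, it was larger by 1.27 ± 0.44, which was not called (adjusted P 0.998, where 0.0% of all genes were called). At 48 h the counts were 74, 44, 67 and 111 under Leaf FR and 30, 54, 50 and 21 under No FR, with overlap (Log2FC 0.97 ± 0.36, adjusted P 0.651). The treatments thus separated at 24 h and not at 48 h. At 96 h they were 263, 26, 68 and 23 under Leaf FR and 44, 34, 16 and 54 under No FR. There 1 library under Leaf FR held more counts than the other 3 together, and the groups overlapped (Log2FC 1.3 ± 0.72, adjusted P 0.368). The average over 6 to 96 h was a Log2FC of 0.91 ± 0.23 (adjusted P 0.166), and before FR the Log2FC was 0.20 ± 0.28.

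PAD-1 and SlIAR3 separated the treatments in fruits at 96 h, in opposite directions. PAD-1 had 70.9, 72.9, 72.4 and 73.9 CPM under Leaf FR and 56.9, 55.9, 52.6 and 54.7 CPM under No FR, and each group spanned a small range compared with the gap between them. Its Log2FC was 0.38 ± 0.06 (adjusted P 0.0677 by edgeR and 3.13e-07 by DESeq2). SlIAR3 had 144, 239, 200 and 173 CPM under Leaf FR and 367, 251, 329 and 260 CPM under No FR, with a Log2FC of −0.69 ± 0.17 (adjusted P 0.092 by edgeR and 0.00557 by DESeq2). The highest SlIAR3 library under Leaf FR, replicate 2, came close to the lowest under No FR. Without this replicate both genes passed the threshold (PAD-1 Log2FC 0.39, adjusted P 0.0203, and SlIAR3 −0.81, 0.0268). At this time 11.3% of the 18438 genes tested in fruits did not overlap between treatments. The light response at 96 h was not shown to differ from that at 0 h, neither for PAD-1 (difference of Log2FC 0.32 ± 0.13, adjusted P 0.496) nor for SlIAR3 (−0.64 ± 0.27, 0.524), and 0.0% of all genes were called in that test.

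At the earlier times the Log2FC of PAD-1 in fruits lay between 0.00 and 0.16 and overlapped throughout. SlIAR3 at 24 h had 206, 172, 182 and 194 CPM under Leaf FR and 253, 243, 216 and 192 CPM under No FR, with overlap (Log2FC −0.26 ± 0.10, adjusted P 0.972). FZY2 in fruits lay between 30 and 115 counts. Its largest difference was at 48 h, with 78, 79, 101 and 57 counts under Leaf FR and 52, 52, 43 and 70 under No FR (Log2FC 0.57 ± 0.19, adjusted P 0.651). FZY6 was at 12 to 27.6 CPM in the fruit libraries, with Log2FC between −0.26 and 0.11, standard errors of 0.09 to 0.12 and a lowest adjusted P of 0.495.

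Of the 6 members tested in fruits, 0 were called by edgeR at any of the 6 times, where it called 0.0% of all genes at 0 to 48 h and 0.0434% at 96 h. At 0, 6, 12, 24, 48 and 96 h, the members with an unadjusted P under 0.05 numbered 0, 0, 0, 3, 3 and 2, against 1.36%, 3.38%, 2.75%, 4.85%, 7.54% and 18.6% of all genes. DESeq2 called ToFZY (higher) at 24 h, both PAD-1 (higher) and SlIAR3 (lower) at 96 h, and no member at 0, 6, 12 or 48 h. It called 0.0055%, 0.0%, 0.00546%, 0.0382%, 0.0976% and 5.81% of all genes at the 6 times. At 48 h DESeq2 gave no adjusted P for 4 of the 6 members. The study lists ToFZY, PAD-1 and SlIAR3 for fruit changes at these times and in these directions. Their DESeq2 calls are therefore not independent evidence. In the average over 6 to 96 h, 0 of the 6 were called by edgeR, against 0.0% of all genes. An unadjusted P under 0.05 was found for 2 members, against 11.5% of all genes. DESeq2 called 0 members in that average, against 0.489% of all genes, but it gave no adjusted P for 4 of the 6. The median Log2FC of the members tested lay between −0.03 (96 h) and 0.11 (24 h).

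**Figure D3:**
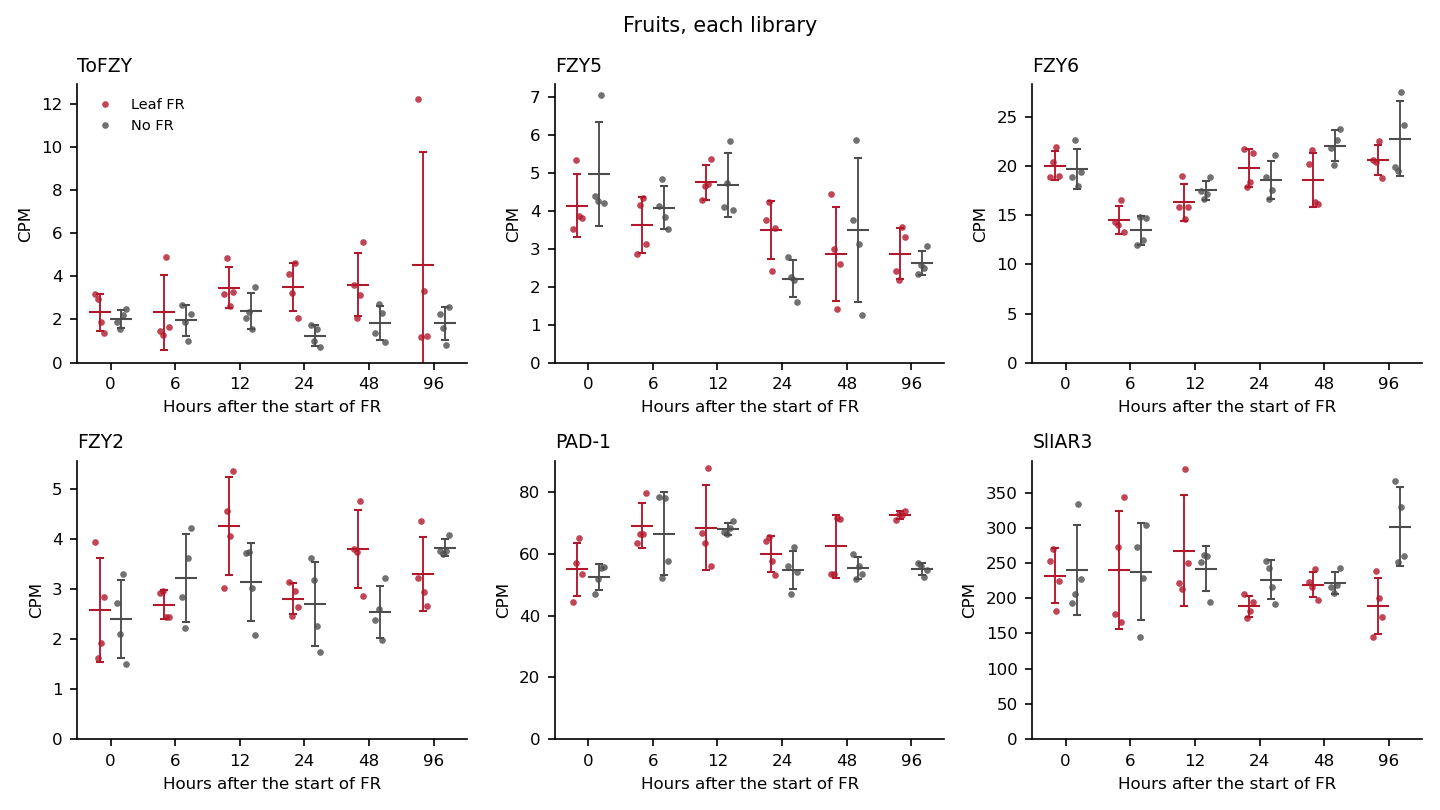
CPM of the 6 members detected in fruits, in each fruit library (points), against hours after the start of FR, with the mean and SD (line and bars, cut at 0 for ToFZY at 96 h) of 4 libraries. The treatments separate for ToFZY at 24 h and for PAD-1 (70.9 to 73.9 CPM under Leaf FR, 52.6 to 56.9 CPM under No FR) and SlIAR3 at 96 h, and overlap elsewhere.

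Fruits and leaves of No FR plants differed in 4 or 5 of the 6 members tested, according to the time. This is near the share of all genes called between organs, which was 60.4% to 76.2%. The plants sampled at a time gave both organs, so fruits and leaves were not from separate plants here or in the differences of light responses between organs. ToFZY, FZY5, FZY6 and SlIAR3 were higher in fruits at all 6 times, with no overlap at any. ToFZY in No FR fruits was at 2.03 ± 0.404 CPM at 0 h, against 0.0209 ± 0.0418 CPM in leaves (SD, n = 4 each). Its summed counts of 163 in fruits and 1 in leaves gave a ratio of 95.2 (95% interval 16.8 to 3782). At 24, 48 and 96 h the 4 leaf libraries held 0 counts, and ToFZY was at least 19.4-fold, 30.5-fold and 30.6-fold higher in fruits, computed with 3 counts for the leaf group as a whole.

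FZY5 was 2.72 to 5.76 higher in fruits on the log2 scale (standard errors 0.37 to 0.68, highest adjusted P 0.00263), with the smallest difference at 6 h, when No FR leaves had their most counts. The few leaf counts made single libraries weigh on it, with 3.66 at 6 h without leaf replicate 4, 7.33 at 12 h without leaf replicate 1 and 4.99 at 96 h without leaf replicate 2. FZY6 was 1.42 to 3.80 higher (standard errors 0.19 to 0.57, highest adjusted P 0.025), again on the log2 scale. Its call was lost at 0 h without fruit replicate 2 (adjusted P 0.0559) or leaf replicate 1 (0.0558). At 24 h it was lost without fruit replicate 4 (0.0533) or without leaf replicate 1 (0.0613), 2 (0.0658) or 4 (0.0585), while without leaf replicate 3, which had 193 counts, the Log2FC was 2.78 (8.2e-07). DESeq2 gave FZY6 no P-value in that comparison. SlIAR3 was 1.70 to 2.28 higher (standard errors 0.24 to 0.27, highest adjusted P 0.000185).

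PAD-1 was close to equal between organs from 0 to 24 h, with a Log2FC of fruits over leaves between −0.04 and 0.08. It was higher in fruits at 48 h (55.4 ± 3.55 CPM in fruits, 43 ± 6.03 CPM in leaves, SD, n = 4 each, and Log2FC 0.42 ± 0.12, adjusted P 0.00968) and at 96 h (55 ± 1.84 CPM in fruits, 37.2 ± 6.23 CPM in leaves, and Log2FC 0.63 ± 0.12, adjusted P 0.000853). FZY2 was called at 6 h (3.21 ± 0.876 CPM in fruits, 0.662 ± 0.242 CPM in leaves, SD, n = 4 each, and Log2FC 2.31 ± 0.34, adjusted P 0.000204) and at 12 h (Log2FC 0.81 ± 0.29, adjusted P 0.0385). The 12-h call was lost with the replicate block (adjusted P 0.0942) and without any one of 6 of its 8 libraries (0.0513 to 0.103).

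At 0, 6, 12, 24, 48 and 96 h, the organ difference was called for 4, 5, 5, 4, 5 and 5 of the 6 members, all higher in fruits. Of all genes, 71.5%, 71.3%, 60.4%, 71.3%, 75.7% and 76.2% were called in either direction, and the share of members called was near these. Genes called higher in fruits made up 37.5%, 35.7%, 28.8%, 36.7%, 39.9% and 40.1%. Every fruit library lay above every leaf library for 4, 5, 4, 4, 5 and 5 members, and for 35.8%, 32.5%, 28.4%, 35.2%, 37.1% and 36.1% of all genes. ToFZY at every time and FZY5 at all times but 6 h had no leaf library with 10 or more counts. At 6 h too few leaf libraries reached 10 counts of FZY5 to pass the filter without the fruits. Both genes thus passed the filter only through the fruits at every time, and their direction was fixed by it.

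**Figure D4:**
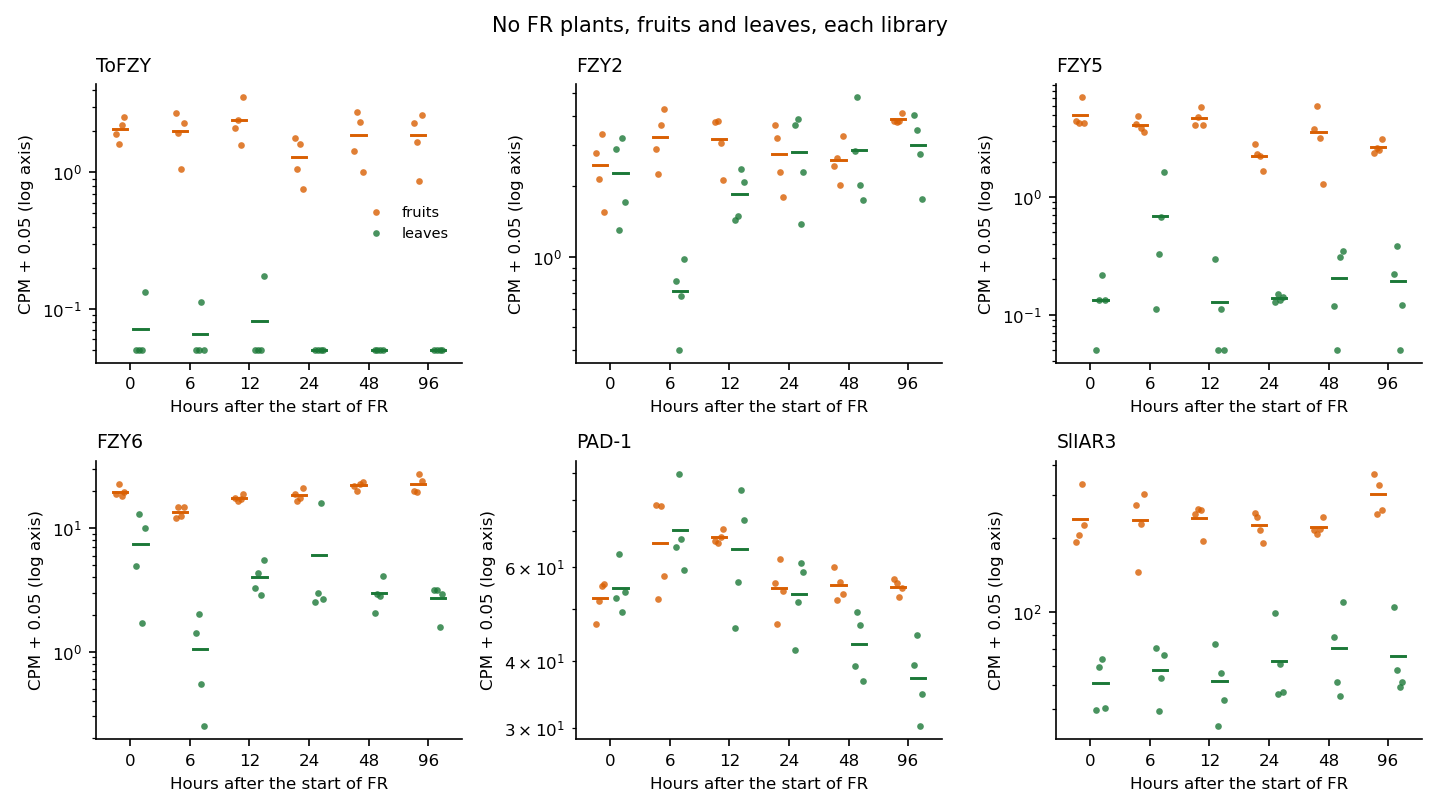
CPM + 0.05 (log axis, each panel on its own scale) of the 6 members tested, in fruit and leaf libraries of No FR plants (points, 4 per organ and time, lines at the mean), against hours after the start of FR. ToFZY, FZY5, FZY6 and SlIAR3 lie higher in every fruit library than in every leaf library of the same time, while PAD-1 overlaps between organs up to 24 h and FZY2 separates them at 6 h only.

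Of the 5 members tested in leaves, 3 differed between 6 and 0 h under each treatment. Of all genes, 37.6% differed under Leaf FR and 27.3% under No FR. The samples of 0, 24, 48 and 96 h were taken at the same hour of the morning and those of 6 h in the afternoon. Hour of the day and time since the 0-h sampling, which under Leaf FR is time under FR, therefore cannot be told apart between 6 and 0 h. FZY2 fell at 6 h relative to 0 h in leaves under Leaf FR, to 4, 3, 7 and 11 counts, against 30, 13, 30 and 18 at 0 h (Log2FC −2.46 ± 0.45, adjusted P 4.5e-05). It fell under No FR too, to 12, 5, 10 and 14 counts, against 31, 15, 38 and 20 (−1.74 ± 0.43, 0.00209). FZY6 fell too, to 1.19 ± 0.755 CPM at 6 h against 6.71 ± 4.34 CPM at 0 h under Leaf FR (SD, n = 4 each), with a Log2FC of −2.46 ± 0.59 (adjusted P 0.00105), and to 1.01 ± 0.805 CPM against 7.4 ± 5.1 CPM under No FR (−2.90 ± 0.60, 0.000268). Without replicate 1 the Leaf FR value was −3.25 and without replicate 2 it was −1.85.

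FZY5, which passed the filter on low counts in leaves only through the Leaf FR libraries, went the other way under both treatments. Under Leaf FR it rose at 6 h by a Log2FC of 7.56 ± 0.86 relative to 0 h (adjusted P 8.63e-09) and was also higher at 96 h than at 0 h (6.15 ± 0.86, 1.43e-05). Without replicate 3 these values were 8.21 and 6.75. Under No FR it rose at 6 h by 2.77 ± 0.84 (adjusted P 0.0113), with 1, 4, 10 and 24 counts against 0, 1, 2 and 1 at 0 h, and this call was lost without replicate 4 (Log2FC 1.83, adjusted P 0.216). Of all genes, 37.6% were called between 6 and 0 h in leaves under Leaf FR and 27.3% under No FR, against 3 of the 5 members tested in each. FZY6 in fruits fell at 6 h as well, to 14.5 ± 1.41 CPM against 20.1 ± 1.43 CPM at 0 h under Leaf FR (SD, n = 4 each), with a Log2FC of −0.45 ± 0.11 (adjusted P 0.00369), and to 13.5 ± 1.48 CPM against 19.7 ± 2.03 CPM under No FR (−0.54 ± 0.11, 0.00038). It was the 1 member of 6 called in fruits between 6 and 0 h under either treatment, where 8.0% of all genes were called under Leaf FR and 8.44% under No FR.

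PAD-1, the aminotransferase, was higher in leaves under Leaf FR at 12 h than at 24 h, with 83, 73 and 81.6 CPM at 12 h against 61.7, 47.3, 50.3 and 46 CPM at 24 h (Log2FC 0.60 ± 0.16, adjusted P 0.00687). This call was lost without replicate 3 (0.0633). Under No FR the levels were 46.1, 56.2, 83.7 and 73.3 CPM at 12 h and 42, 51.5, 61 and 58.7 CPM at 24 h (Log2FC 0.28 ± 0.15, adjusted P 0.267). PAD-1 was lower in leaves at 96 h than at 0 h under Leaf FR (Log2FC −0.59 ± 0.15, adjusted P 0.0108), a call lost without replicate 3 (0.153). Under No FR the Log2FC was −0.56 ± 0.15 (adjusted P 0.223), in a comparison where 0.0% of all genes were called and 0 members. Of the 5 members, 2 had an unadjusted P under 0.05 there and DESeq2 called 0, against 14.7% and 0.336% of all genes. Under Leaf FR, 2 of 5 members and 14.5% of all genes were called between 96 and 0 h. Between 12 and 24 h the calls in leaves were 1 of 5 members under Leaf FR (21.9% of all genes) and 0 of 5 under No FR (12.4%). The No FR leaves had 0 members with an unadjusted P under 0.05 and 0 called by DESeq2 in that comparison, against 25.2% and 14.9% of all genes.

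In fruits, PAD-1 was higher at 96 h than at 0 h under Leaf FR (72.5 ± 1.28 CPM at 96 h, 54.9 ± 8.6 CPM at 0 h, SD, n = 4 each, and Log2FC 0.39 ± 0.12, adjusted P 0.0217). This call was lost without replicate 1 (0.188), 2 (0.0638) or 4 (0.126). Under No FR it was at 55 ± 1.84 CPM at 96 h and 52.4 ± 4.09 CPM at 0 h (Log2FC 0.07 ± 0.12, adjusted P 0.725). FZY5 in No FR fruits fell over the same time, to 46, 54, 49 and 64 counts at 96 h against 92, 79, 145 and 84 at 0 h (Log2FC −0.92 ± 0.28, adjusted P 0.0164). Without replicate 1 this adjusted P was 0.0622 and without replicate 3, the library with 145 counts, 0.177. FZY5 was also higher at 12 h than at 24 h in No FR fruits (Log2FC 1.09 ± 0.28, adjusted P 0.0106), which was lost without replicate 2 (0.0576) or 3 (0.0866) and was the call of 1 member of 6 beside 6.14% of all genes. FZY2 in No FR fruits was at 3.82 ± 0.173 CPM at 96 h and 2.41 ± 0.778 CPM at 0 h (SD, n = 4 each), with a Log2FC of 0.67 ± 0.24 (adjusted P 0.0493), and lost the call without any one replicate number (0.076 to 0.246) and with the block (0.0513). Between 96 and 0 h in fruits, 1 of 6 members was called under Leaf FR and 2 under No FR, against 18.5% and 19.6% of all genes.

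Over all 6 times together, FZY2, FZY5, FZY6 and PAD-1 varied in leaves under Leaf FR (adjusted P 6.56e-05, 1.63e-07, 0.00061 and 2.45e-05) and under No FR (0.00185, 0.00784, 0.00242 and 5.53e-05). SlIAR3 did not pass in leaves under either treatment (0.232 under Leaf FR, 0.682 under No FR). In fruits FZY6 varied under Leaf FR (0.00168), and FZY5, FZY6 and PAD-1 under No FR (0.00378, 7.33e-06 and 0.0244). ToFZY did not pass under Leaf FR (0.444) or No FR (0.744). In leaves, 4 of the 5 members varied under each treatment, against 55.0% of all genes under Leaf FR and 39.1% under No FR. In fruits, 1 of 6 varied under Leaf FR (37.0% of all genes) and 3 under No FR (33.9%), a number that was 1 or 2 with 1 replicate number left out.

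In the order of the 24 group means, all 12 fruit groups of ToFZY, FZY6 and SlIAR3 stood above all 12 leaf groups. ToFZY was highest in fruits under Leaf FR at 96 h (4.5 ± 5.25 CPM), a mean that rests on 1 library at 12.2 CPM, and by medians that group (2.28 CPM) stood below Leaf FR fruits of 12, 24 and 48 h (3.21, 3.65 and 3.38 CPM). FZY6 was highest in fruits under No FR at 96 h (22.8 ± 3.81 CPM) and lowest in No FR leaves at 6 h (1.01 ± 0.805 CPM). SlIAR3 was highest in fruits under No FR at 96 h (302 ± 55.7 CPM) and lowest in No FR leaves at 0 h (50.8 ± 12.7 CPM). For PAD-1 leaves held both ends, with 79.2 ± 5.44 CPM under Leaf FR at 12 h (n = 3) and 37.2 ± 6.23 CPM under No FR at 96 h. FZY2 was highest in fruits under Leaf FR at 12 h (4.25 ± 0.979 CPM) and lowest in leaves under Leaf FR at 6 h (0.371 ± 0.197 CPM). Of the 23 pairs of neighbours in each order, the library values of 22 overlapped for ToFZY, FZY2 and SlIAR3, and those of all 23 for FZY3, FZY6 and PAD-1.

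Of the other auxin genes, 7 are named by the study in these fruits and were looked up as a list. They are SlAMI1 (an amidase of another route to auxin), the repressor SlIAA19, the transporters SlPIN4 and SlPIN5, the response factors SlARF10A and SlARF2, and SlSLOMO, an F-box protein. In fruits at 96 h, 0 of the 7 passed the threshold by edgeR and 7 did by DESeq2, against 0.0434% and 5.81% of all genes. All 7 had an unadjusted P under 0.05, 3 of them higher and 4 lower under Leaf FR, against 18.6% of all genes. The list was chosen on these samples, so this count is not independent evidence. SlIAA19 was at 18.6 ± 5.03 CPM under Leaf FR and 9.22 ± 2.38 CPM under No FR (SD, n = 4 each), with a Log2FC of 0.99 ± 0.23 (adjusted P 0.087), and SlAMI1 at 23.3 ± 1.26 CPM under Leaf FR and 17.5 ± 1.79 CPM under No FR (Log2FC 0.40 ± 0.09, adjusted P 0.08).

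In leaves, SlPIN4 (Solyc05g008060), an auxin efflux carrier, was the 1 gene of this list called between treatments in leaves at any time. At 6 h it had 311, 205, 296 and 315 CPM under Leaf FR and 44.8, 51.9, 63 and 98.9 CPM under No FR (Log2FC 2.16 ± 0.27, adjusted P 0.0226), 1 of 6 list genes tested, against 0.365% of all genes. Averaged over 6 to 96 h its Log2FC was 1.14 ± 0.11 (adjusted P 3e-10), and no other list gene was called in that average. SlAMI1 had a Log2FC of −0.33 ± 0.12 there (adjusted P 0.105).

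The genes whose 24 group means followed each member most closely were found by Pearson correlation of log2 CPM over 20919 other genes. The points share libraries and include the difference between organs. For FZY5, whose pattern joins fruits with FR leaves, they were Solyc01g066980 (r = 0.92), Solyc05g008260 (0.91) and Solyc04g081490 (0.91). For FZY6 they were Solyc03g078770 (0.96), Solyc10g055630 (0.96) and Solyc02g091890 (0.95), and for FZY2 Solyc02g080510 (0.92), Solyc03g044620 (0.91) and Solyc03g111670 (0.91). ToFZY was followed by Solyc02g094860 (0.99), Solyc10g046920 (0.99) and Solyc01g108930 (0.99), SlIAR3 by Solyc07g039330 (0.99), Solyc12g011420 (0.99) and Solyc04g077580 (0.99), and PAD-1 by Solyc06g051650 (0.92), Solyc01g066480 (0.90) and Solyc08g063080 (0.90). In the study's supplement Solyc02g094860 is SlCYP735A1, a cytochrome P450 of cytokinin biosynthesis, and the count table itself gives no gene names.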

How the data were processed

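Total RNA of 95 libraries was sequenced by the study on DNBSEQ with paired-end reads. Read filtering by the authors used SOAPnuke, alignment to the ITAG4.0 reference used Bowtie2, and reads per gene were estimated with RSEM, which divides reads that match several genes among them. The deposited expected counts are whole numbers, without normalization, and were used unchanged. Reads of near-identical FZY copies may be split by this estimate. A deposited table of normalized counts was not used here.

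A gene was tested where 3 or more of the compared libraries held 10 or more counts. The quasi-likelihood test of edgeR 4.0.16 (with limma 3.58.1 under R 4.3.3) followed TMM normalization, with Benjamini-Hochberg adjustment over all genes and a threshold of 0.05. Light was compared within each organ and time. The average over 6 to 96 h and the time contrasts came from 1 fit per organ, the organ contrast from No FR libraries of 1 time, and differences of light responses from interaction terms. Standard errors are the size of the Log2FC divided by the square root of F. CPM use TMM factors over all 95 libraries. Libraries held 14769415 to 17957406 counts, and a count of 0 allows up to 3 counts.

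Alternatives were DESeq2 1.42.0 (Wald test), its size factors, robust dispersion, leaving out the low-count filter, the replicate number as a block, 1 fit over all times, and libraries left out in turn. All 7 genes are described, with values per library where light treatments did not overlap or a light comparison was called, and further cases chosen after their values were seen. Organ and time comparisons are given partly as means or ranges. The likeness ranking took the 3 genes with the highest correlation (prior count 2). The genes and lists were chosen with earlier results of these data known. Levels per transcript length were not compared, since no lengths were at hand, and ToFZY was left out of the tests between organs' light responses because its leaf counts were 0 to 2. Replicates differed by a chi-square of at least 5.59 per degree of freedom, so no library was counted as a duplicate. Simulated counts with known changes were used to check the tests. Libraries of 1 organ are from separate plants, but the plants sampled at a time gave both a leaf and a fruit, and the labels do not say which. The plants stood in units of several plants under 1 light treatment, and plants of different times could share a unit. The labels do not give the unit, so the averages over 6 to 96 h and the time contrasts treated such plants as independent. The study left out 1 sample for its RNA quality, and the 12-h leaves under Leaf FR have 3 libraries here.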

Additional observations from a re-analysis of the deposited data

Results flagged for a closer look

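The light response of FZY5 differed between leaves and fruits by a Log2FC (leaves minus fruits) of 4.23, 5.90 and 4.63 at 6, 24 and 96 h, and that of FZY6 by 1.63 at 96 h, each past the threshold in the test of the difference itself.

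In 9 of the 125 groups of 4 libraries looked at, 1 library stood far from the other 3, where chance gives about 1 in 20. ToFZY in fruits under Leaf FR at 6 h was at 4.91 CPM in replicate 3 and at 1.29 to 1.65 CPM in the others. FZY2 in No FR fruits at 96 h was at 4.08 CPM in replicate 4 (3.70 to 3.76 in the others). FZY5 in No FR fruits at 0 h was at 7.03 CPM in replicate 3 (4.20 to 4.40). FZY6 in leaves was at 2.31 CPM in Leaf FR replicate 1 at 6 h (0.654 to 0.917), at 16.0 CPM in No FR replicate 3 at 24 h (2.46 to 2.92) and at 1.54 CPM in No FR replicate 3 at 96 h (2.87 to 3.12). PAD-1 in leaves under Leaf FR at 48 h was at 57.7 CPM in replicate 2 (42.8 to 44.8). SlIAR3 was at 104 CPM in No FR leaf replicate 1 at 96 h (48.9 to 57.7) and at 195 CPM in No FR fruit replicate 4 at 12 h (251 to 262). The part these libraries play was measured only by leaving each out.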

How the results depend on the processing

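No member changed its direction under any alternative among the results that passed the threshold in some setting, had an unadjusted P under 0.05 or did not overlap between treatments. These results were picked by their values, so a kept direction is a description. For FZY5 between treatments in leaves the direction was fixed by the filter on low counts. The same holds between organs for ToFZY and FZY5. Of the single-gene values under alternatives, 847 kept their side of the threshold, 43 lost the call and 21 gained one. The number of the 7 genes called moved with DESeq2 from 0 to 1 in fruits at 24 h, 0 to 2 in fruits at 96 h, 0 to 1 in leaves at 6 and 12 h, 0 to 2 in leaves at 48 h, 1 to 2 in leaves at 96 h, and 0 to 1 for the change of the leaf light response between 0 and 96 h. One fit over all times gave 1 in leaves at 6, 12 and 48 h in place of 0. With the replicate block it was 1 in leaves at 6 h in place of 0, and 0 at 96 h in place of 1. In fruits, the block gave 2 in place of 1 for any change over time under Leaf FR, as did DESeq2's size factors, and 1 in place of 2 between 96 and 0 h under No FR, as did leaving out the filter.

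With 1 library or replicate number left out, the number ranged from 0 to 1 in leaves at 6 and 96 h, 1 to 2 in leaves at 24 h and in the leaf average, and 0 to 2 in fruits at 96 h. For the light response between organs it ranged from 0 to 1 at 6 h, 1 to 2 at 24 h and 0 to 2 at 96 h. Over time it ranged from 0 to 1 between 96 and 0 h in Leaf FR fruits, between 12 and 24 h in both fruit treatments and in Leaf FR leaves, from 0 to 2 between 96 and 0 h in No FR fruits, and from 1 to 2 in Leaf FR fruits at 6 h, Leaf FR leaves at 96 h and for any change in Leaf FR fruits, and it was 1 to 2 in place of 3 for any change in No FR fruits. Calls over time gained without 1 replicate number included PAD-1 between 6 and 0 h in Leaf FR fruits without replicate 3 (adjusted P 0.0253), FZY6 between 12 and 24 h in Leaf FR fruits without replicate 2 (0.0305) and FZY6 between 96 and 0 h in No FR fruits without replicate 2 (0.0254). The cause of these moves was not tested.

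Same-numbered Leaf FR and No FR libraries did not deviate together (correlation −0.61 to 0.55 over 44 pairs, median 0.01), so numbers were not taken as pairs. Same-numbered fruits and leaves of No FR plants correlated by −0.05 to 0.14. In 14 of these 24 pairs, the fruit and the leaf library were each the closest match of the other at that time. This is a hint from the data and not the design, and the main tests between organs did not use such a pairing. The block changed 4 of 43 numbers of called genes. The alternative for levels per coding length was not run. ToFZY and FZY3 in leaves, and FZY3 in fruits, were under the filter on low counts and got no test of light.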
